A study of Drosophila melanogaster with 12 samples.

Results

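The genotype-by-time interaction in Drosophila melanogaster salivary glands is the part of the gene expression difference between E93 mutants and controls that changed between 12 and 14 h after pupariation. For each gene it was the log2 fold change of mutant over control at 14 h minus the same fold change at 12 h. All 12 libraries of the series enter it, chosen by the titles of the count columns, so it uses 12 of 12 samples, 3 in each of 4 groups. Mutant glands at 14 h and at 12 h came from animals with the allele pair E93Δ12/E93Δ13. Control glands at 14 h and at 12 h came from animals with 1 copy of E93Δ1 over +, so the controls are heterozygous and the mutants carry other alleles. All 4 groups share w1118 and fkh>GFP, which marks the glands through a fkh driver, and the diet was cornmeal and molasses throughout. Nothing in the labels tells if replicates are separate dissections, so p-values measure the spread between these samples, which may be technical. Each library is RNA of whole glands, so fewer cells of a type and less RNA per cell cannot be told apart.

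E93, written Eip93F in gene lists, encodes a DNA-binding transcription factor that ecdysone induces, and in Drosophila it is required for the destruction of the larval salivary glands. Pulses of the steroid ecdysone drive the steps of metamorphosis through a receptor made of EcR and usp and a cascade of early regulators such as br, Eip74EF and Eip75B. In the hours around head eversion the larval gland answers a prepupal pulse of the hormone and then dies by caspase activation and autophagy, so the same gene can stand at different points of its rise or fall at 2 nearby ages. A positive interaction means that mutants stood higher relative to controls at 14 h than at 12 h, and a negative one that they stood lower.

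Library totals ran from 6977403 to 9497317 counts, and a count of 3 is 0.316 to 0.43 CPM (counts per 1000000 counts), a floor for counting error only. Levels below are CPM with TMM scaling, a correction of library size, in replicate order. The gland regulators sage, CrebA and exd were counted in every library, fkh stood at 2.08 to 16.7 CPM, and hkb, a regulator of the embryonic gland, was at 0 in 8 of 12 libraries. The 12 h control replicate 1 lay apart from its partners. On the first principal component, which held 53.5% of the variance, it stood at -3.23, against -55.2 and -62.1 for its partners and 60.4 to 64.4 for the 14 h controls. A list of 12 gut marker genes summed to 106.9 CPM in replicate 2 of the 14 h mutants and to 227.9 CPM in replicate 1 of the 12 h mutants. The sums were 2.86 and 7.96 CPM in the other 14 h mutants, 8.22 and 30.4 CPM in the other 12 h mutants, and 1.67 to 8.13 CPM in the controls. Most of the 106.9 CPM came from mesh (56.72), Ssk (31.55) and Tsp2A (12.09). The same genes gave most of the 227.9 CPM, with 135.4, 46.47 and 21.15. In that library mex1 (10.1), GATAe (6.25) and cad (5.449) were also at their highest. The listed genes Jon65Aiii, Jon65Aiv, Vha100-4 and lab did not exceed 0.3205 CPM in either library. The trypsin gene betaTry of that list had 0 counts in 11 libraries. High gut markers below refers to the sums only. The part of gut cells in the results was not tested.

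The gene that names the mutation did not itself pass the interaction test. Eip93F (FBgn0264490, 3R, 21949114 to 22014539, plus strand, BDGP6) stood at 14 h at 1956, 1985 and 2022 CPM in mutants, against 776, 865 and 894 CPM in controls. At 12 h Eip93F had 4058, 4313 and 3870.0 CPM in mutants, against 1175, 1917 and 2078 CPM in controls. Mutants stood above controls at each age, with no overlap. The mutant-over-control difference was 1.23 at 14 h and 1.24 at 12 h on the log2 scale, and the interaction was -0.01 (SE 0.29, edgeR adjusted p = 0.998). Gene counts cannot tell which of these transcripts are functional.

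Over the transcriptome, 206 of 7584 genes tested (2.72%) passed the interaction test at an edgeR quasi-likelihood adjusted p under 0.05. In 133 genes (1.75%) the interaction was positive and in 73 (0.963%) negative. The median size of a called interaction was 2.02 on the log2 scale for positive and 1.81 for negative genes, and 67 and 29 genes had a size of at least 4-fold. The median over all genes tested was 0.05. At 14 h the genotype comparison called 1153 genes (15.2%), with 8.29% of all genes higher and 6.91% lower in mutants. At 12 h it called 1199 (15.8%), with 7.94% higher and 7.87% lower. Each interaction was placed by its 4 component effects, which use the same libraries and are given as description. Among the 133 positive genes, 60 were higher in mutants at 14 h and not called at 12 h, and 35 were lower in mutants at 12 h and not called at 14 h. A further 20 were higher at both ages, 8 lower at both, and 10 changed sides, being higher in mutants at 14 h and lower at 12 h. Among the 73 negative genes, 40 were lower in mutants at 14 h only, 19 higher at 12 h only, 6 lower at both, 2 higher at both, and 6 lower at 14 h and higher at 12 h.

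Between 12 and 14 h 45.1% of all genes changed in mutants and 43.2% in controls. These changes depend on the scaling, since TMM factors were 1.126 to 1.261 at 14 h and 0.7534 to 0.9422 at 12 h. With library size alone 4147 genes changed in mutants and 4096 in controls, against 3417 and 3277 with TMM. The positive genes were mostly ones whose control level fell: 36 were not called in mutants and fell in controls, 34 rose in mutants and fell in controls, and 31 fell in both. Another 25 rose in mutants and were not called in controls, and 7 rose in both. Of the negative genes, 25 fell in mutants and were not called in controls, 23 were not called in mutants and rose in controls, 14 fell in mutants and rose in controls, 7 fell in both and 4 rose in both. Among 156 interaction genes whose control level changed with age, the 12 h control replicate 1 was the one of its group nearest the 14 h controls in 104, replicate 2 in 35 and replicate 3 in 17. The same count over all genes was not made. On the first principal component of all genes tested the 12 h control replicate 1 was also the one of its group nearest the 14 h controls. Without replicate 1 of the 12 h controls 430 genes were called. Without one of the 14 h controls (replicates 1, 2 and 3) the count was 105, 109 and 129, and without the 14 h mutant replicate 2 or 3 it was 121 or 133. Leaving out both mutant libraries with high gut markers left 84 calls, of which 83 were among the 206. In 21 other fits judged at the same threshold, 73 of the 206 genes passed in all of them in the same direction, 52 positive and 21 negative. These fits were 7 changes of tool, scaling, filter or design, 12 fits without 1 library, and 2 without the libraries that stood apart.

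**Figure D1:**
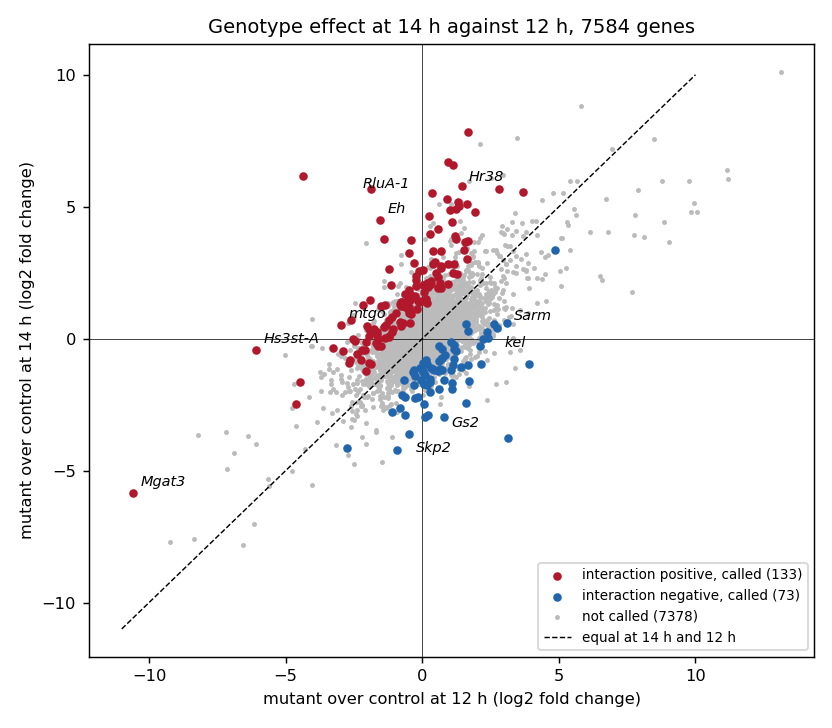
Log2 fold change of mutant over control at 14 h (vertical axis) against the same at 12 h (horizontal axis) for 7584 genes, each point 1 gene, with red and blue points marking called positive (133) and negative (73) interactions. Called genes lie off the dashed line of equal effects, Mgat3 at the far left because its difference was larger at 12 h, and Skp2 and Gs2 below the line because they were lower in mutants at 14 h.

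Many genes with a positive interaction fell in controls between the ages, while in mutants they fell less or rose. Hr38 (FBgn0014859, 2L, 20683462 to 20714588, minus strand), a nuclear receptor of the NR4A family, was one of them. At 14 h Hr38 stood at 139, 126 and 107 CPM in mutants, against 2.08, 2.20 and 2.44 CPM in controls. At 12 h Hr38 had 329, 254 and 220.5 CPM in mutants, against 56.4, 98.5 and 141 CPM in controls. Control levels at 14 h lay far below every other library, and the 12 h control libraries lay below the 12 h mutants with no overlap. With age Hr38 fell by 1.11 in mutants and by 5.45 in controls (log2), and its interaction was 4.34 (SE 0.42, edgeR adjusted p = 0.000193). The gene ec (echinus; FBgn0000542, X, 3811698 to 3857621, plus strand), which is needed for the death of surplus cells in the developing Drosophila eye, rose with age in mutants (2.37) and fell in controls (-2.81). At 14 h ec stood at 110.2, 113 and 109.8 CPM in mutants, against 7.93, 5.65 and 10.9 CPM in controls. At 12 h ec had 18.1, 24.6 and 21.6 CPM in mutants, against 120.4, 18.6 and 32.4 CPM in controls. The groups did not overlap at 14 h and overlapped at 12 h, where the control replicate 1 alone reached the 14 h mutant level. Its interaction was 5.18 (SE 0.76, edgeR adjusted p = 0.00283). Over the 12 fits without 1 library the ec value ran from 4.03 to 5.55 and passed in each. Sobp (FBgn0033654, 2R, 11827170 to 11839825, minus strand), a homolog of sine oculis-binding protein, gave the same kind of pattern. At 14 h Sobp stood at 71.8, 70.8 and 73.7 CPM in mutants, against 1.09, 2.72 and 1.67 CPM in controls. At 12 h Sobp had 23.9, 49 and 19 CPM in mutants, against 8.07, 17 and 24.1 CPM in controls. Mutants and controls overlapped at 12 h and were far apart at 14 h, and the interaction was 4.38 (SE 0.62, edgeR adjusted p = 0.00244).

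In another set mutants rose between the ages and controls stayed low. RluA-1 (FBgn0051719, 2L, 10463340 to 10474349, minus strand), a member of the pseudouridine synthase family, was near the floor at 12 h in both genotypes. At 14 h RluA-1 stood at 98.6, 108 and 125 CPM in mutants, against 2.38, 2.30 and 2.55 CPM in controls. At 12 h RluA-1 had 1.12, 0.716 and 0.968 CPM in mutants, against 0.768, 0.866 and 0.519 CPM in controls. It rose by 6.87 in mutants and by 1.71 in controls on the log2 scale. The interaction was 5.17 (SE 0.39, edgeR adjusted p = 3.97e-05). Eh (FBgn0000564, 3R, 17446642 to 17448858, minus strand) encodes eclosion hormone, a neuropeptide that triggers ecdysis behaviour. At 14 h Eh stood at 24, 40.0 and 47.4 CPM in mutants, against 2.38, 1.05 and 1.44 CPM in controls. At 12 h Eh had 0.481, 0.286 and 0.806 CPM in mutants, against 1.28, 2.74 and 0.519 CPM in controls. Only the 14 h mutant libraries stood above 3 CPM, and the interaction was 6.05 (SE 0.77, edgeR adjusted p = 0.00121). The 8 listed neuron markers summed to 30.3 to 36.8 CPM in 14 h mutants, against 17.4 to 24.3 CPM in 14 h controls, and to 3.87 to 10.3 CPM in 12 h mutants, against 3.32 to 12 CPM in 12 h controls. The largest part of the 14 h mutant sums was elav, at 15.6 to 18.4 CPM, against 6.74 to 10.1 CPM in 14 h controls. Only for elav and Syt1 did the 14 h mutants lie above the 14 h controls without overlap. Of these 8 genes 6 were tested and 0 called by edgeR (1 at an unadjusted p under 0.05, 0 by DESeq2 and 0 by limma voom). Of all 7584 genes tested 206 were called by edgeR and 1027 had an unadjusted p under 0.05, while DESeq2 called 338 and limma voom 208. The marker para was at 0 in 4 of the 12 h libraries. The part of neurons in the Eh result was not tested.

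Actn (FBgn0000667, X, 2023822 to 2042311, minus strand), which encodes the actin crosslinker alpha-actinin of muscle and other cells, rose in mutants alone. At 14 h Actn stood at 669.5, 936 and 725 CPM in mutants, against 113, 114 and 97.3 CPM in controls. At 12 h Actn had 129, 134 and 108 CPM in mutants, against 87.9, 83.7 and 114 CPM in controls. Its 14 h mutants stood above all other libraries, and the interaction was 2.47 (SE 0.26, edgeR adjusted p = 0.000348). About 19.4% of its exon length overlaps exons on the other strand, so its counts can include a neighbour's reads, since the strand setting is not given. The 9 listed muscle markers summed to 269.7 to 292 CPM in 14 h mutants, against 179.7 to 200.7 CPM in 14 h controls, and to 1093 to 1363 CPM in 12 h mutants, against 336 to 1349 CPM in 12 h controls. Of these genes 8 were tested and 0 called by edgeR (1 at an unadjusted p under 0.05, 0 by DESeq2 and 0 by limma voom). Of all 7584 genes tested 1027 had an unadjusted p under 0.05. The part of muscle in the Actn result was not tested. Most of each sum came from bt, the gene of the giant muscle protein projectin, at 234 to 271 CPM in 14 h mutants, against 149 to 180.3 CPM in 14 h controls, and at 1051 to 1337 CPM in 12 h mutants, against 310.2 to 1314 CPM in 12 h controls. The flight muscle actin gene Act88F was at 0 in all mutant libraries. LManII (FBgn0027611, 2L, 10457658 to 10462472, plus strand), a lysosomal alpha-mannosidase, behaved alike, with 83.2 to 89.9 CPM in 14 h mutants, against 13.9 to 14.9 in 14 h controls, and 9.84 to 14.5 CPM in 12 h mutants, against 9.22 to 15.9 in 12 h controls (interaction 2.56, SE 0.29, edgeR adjusted p = 0.000564). Both SoxN and D encode Sox transcription factors. SoxN was higher in mutants at both ages, with 733 to 808 CPM in 14 h mutants, against 13.5 to 19.3 in 14 h controls, and 416 to 474 CPM in 12 h mutants, against 28.3 to 41 in 12 h controls (interaction 1.87, SE 0.25, edgeR adjusted p = 0.00182). D (Dichaete) rose with age in both genotypes, with 793 to 869.8 CPM in 14 h mutants, against 73.4 to 87.4 in 14 h controls, and 9.19 to 14.7 CPM in 12 h mutants, against 3.98 to 12.4 in 12 h controls (interaction 2.63, SE 0.47, edgeR adjusted p = 0.0106). Without both mutant libraries with high gut markers the D interaction was 2.60 and did not pass (adjusted p = 0.068).

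**Figure D2:**
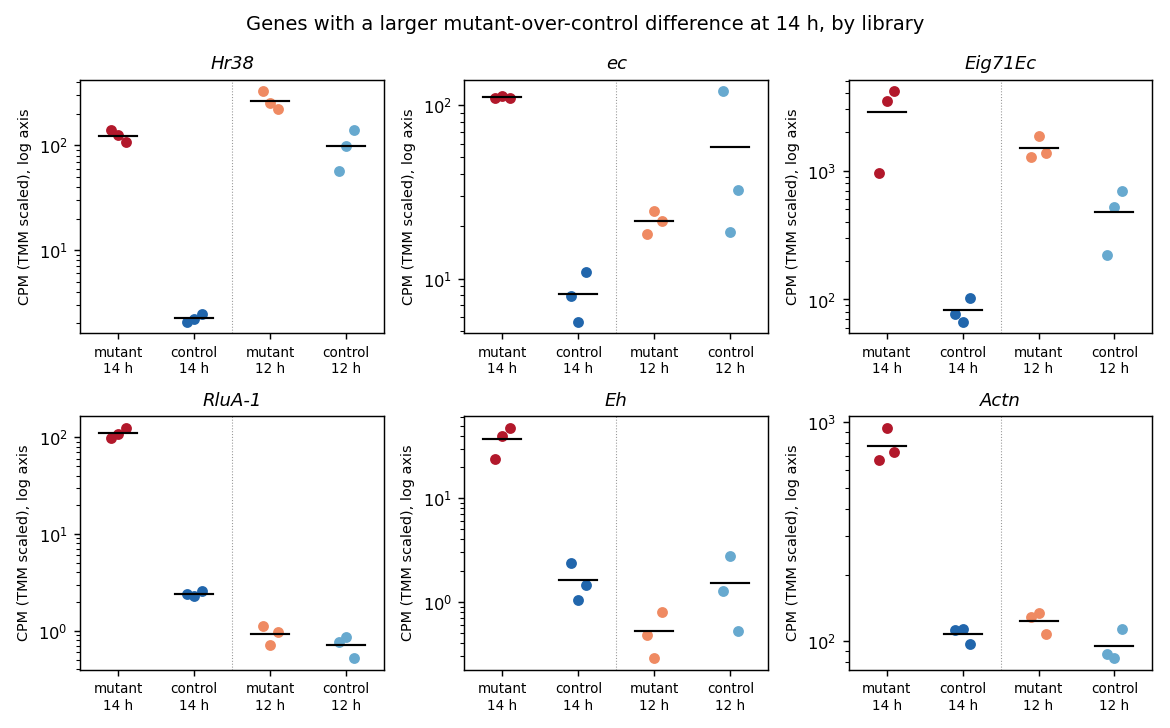
TMM-scaled CPM of 6 genes in each library on log axes, with points in replicate order 1 to 3 within a group and black bars for group means. For each gene the 14 h mutants stand above the 14 h controls without overlap, while at 12 h the genotypes are closer or overlap.

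The late 71E genes encode small secreted proteins, lie side by side on chromosome arm 3L and are known as late targets of ecdysone in the gland. Of 10 measured members 4 passed the interaction test, all positive, 40% against 1.75% positive among all genes tested. All 10 values lay above 0, with a median of 3.19 against 0.05 over all genes, and neighbouring members of the cluster are not independent. Eig71Ec (FBgn0004590, 3L, 15651479 to 15652254, minus strand) stood at 14 h at 955, 3498 and 4130.1 CPM in mutants, against 76.7, 67.5 and 103 CPM in controls. At 12 h Eig71Ec had 1277, 1856 and 1369.7 CPM in mutants, against 221, 521 and 692 CPM in controls. Mutants exceeded controls without overlap at both ages, and the 14 h mutant replicate 1 lay below the 12 h mutants. The difference was 5.12 at 14 h and 1.65 at 12 h, and the interaction was 3.47 (SE 0.69, edgeR adjusted p = 0.0176). Eig71Ed, Eig71Ef and Eig71Eg gave interactions of 3.67 (SE 0.75), 3.87 (SE 0.83) and 3.66 (SE 0.83), with edgeR adjusted p of 0.0192 to 0.0336. The other 6 members had values of 0.27 for Eig71Ek to 3.98 for Eig71Eh, which did not pass (edgeR adjusted p of 0.0719 or more). These calls sit close to the threshold. Leaving out 1 library ended the Eig71Ec call for 6 of 12 libraries (both 14 h mutants other than replicate 1, 14 h control replicates 1 and 2, and 12 h mutant replicates 1 and 3, with edgeR adjusted p of 0.0511 to 0.0742). For Eig71Ed the same 6 and the 12 h control replicates 2 and 3 ended it (0.0507 to 0.0791). For Eig71Ef (0.0595 to 0.0983) and Eig71Eg (0.069 to 0.122) so did the 14 h control replicate 3, and limma voom also ended the Eig71Eg call (0.0511). The interaction stayed at 3.08 or more in all of these fits. Without both mutant libraries with high gut markers the 4 values were 3.20 to 3.65, with adjusted p of 0.13 to 0.178. The neighbouring glue gene Eig71Ee gave 1.75 (SE 0.36, edgeR adjusted p = 0.0193), the 1 called member of 10 glue genes, whose median was -0.38, and 6 of 12 libraries left out ended it (14 h mutant replicates 2 and 3, 14 h control replicates 1 and 2, 12 h mutant replicate 1 and 12 h control replicate 3, adjusted p of 0.0516 to 0.0729). Without both mutant libraries with high gut markers the Eig71Ee value did not pass (0.13), nor without these and the 12 h control replicate 1 (0.0583).

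A different set of positive interactions came from genes that were low in mutants at 12 h and not called different at 14 h. Hs3st-A (FBgn0053147, 2R, 18718114 to 18754675, plus strand), which sulfates heparan sulfate chains, had the largest such change among genes named. At 14 h Hs3st-A stood at 7.96, 13.1 and 12.5 CPM in mutants, against 15, 17.9 and 12.5 CPM in controls. At 12 h Hs3st-A had 1.44, 1.57 and 0 CPM in mutants, against 78.5, 48.2 and 85 CPM in controls. The 12 h groups lay apart, and at 14 h the groups overlapped. Mutants rose with age (log2 3.43) and controls fell (-2.22), with an interaction of 5.65 (SE 0.67, edgeR adjusted p = 0.000669). The gene mtgo (miles to go; FBgn0259735, 2L, 16545016 to 16663218, plus strand) followed the same course. At 14 h mtgo stood at 252, 217 and 229 CPM in mutants, against 155, 199 and 134 CPM in controls. At 12 h mtgo had 47.6, 39.4 and 33.9 CPM in mutants, against 314, 233 and 403 CPM in controls. Every mutant library was below every control at 12 h and above every control at 14 h, though the 14 h difference of 0.51 did not pass (edgeR adjusted p = 0.143). Its interaction was 3.49 (SE 0.32, edgeR adjusted p = 0.000154). Fhos (FBgn0266084, 3L, 8753619 to 8798719, plus strand), a formin that assembles actin filaments, combined a fall in controls with a rise in mutants. At 14 h Fhos stood at 366, 358 and 299 CPM in mutants, against 433, 426 and 454 CPM in controls. At 12 h Fhos had 141, 153 and 137 CPM in mutants, against 1060.4, 1599.7 and 1467 CPM in controls. Its 12 h mutant libraries were the lowest and its 12 h controls the highest of the 12, and the interaction was 2.90 (SE 0.25, edgeR adjusted p = 0.000132). Mutants still lay below controls at 14 h without overlap, a difference of -0.36 that did not pass (edgeR adjusted p = 0.197).

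C1GalTA, which builds the core of mucin-type O-glycans, had 21 to 60.3 CPM in 14 h mutants, against 38.7 to 44.4 in 14 h controls, and 10.2 to 11.5 CPM in 12 h mutants, against 50.3 to 73.4 in 12 h controls (interaction 2.52, SE 0.42, edgeR adjusted p = 0.00714). The ubiquitin ligase gene Nedd4 had 390.0 to 432 CPM in 14 h mutants, against 323 to 369 in 14 h controls, and 92.6 to 133 CPM in 12 h mutants, against 272 to 512 in 12 h controls (interaction 2.11, SE 0.31, edgeR adjusted p = 0.00291). Lsd-2, a perilipin of lipid droplets, had 193 to 232 CPM in 14 h mutants, against 271 to 296 in 14 h controls, and 94 to 112 CPM in 12 h mutants, against 329 to 554 in 12 h controls (interaction 1.66, SE 0.26, edgeR adjusted p = 0.00485). In each of these 3 genes the 12 h mutants lay below the 12 h controls without overlap, and the 14 h genotype difference did not pass. The 14 h mutants still lay apart from the 14 h controls for Nedd4, where they were higher, and for Lsd-2, where they were lower. Mgat3 (FBgn0051849, 2L, 13180398 to 13182596, minus strand), a glycosyltransferase of N-glycan branching, reached a positive interaction by another route. At 14 h Mgat3 stood at 0.816, 0.659 and 0.562 CPM in mutants, against 39.1, 37.6 and 43.5 CPM in controls. At 12 h Mgat3 had 0.160, 1.15 and 1.13 CPM in mutants, against 761, 1537 and 1529.7 CPM in controls. Mutants stayed near 1 CPM or below at both ages, with a change of -0.27 that did not pass (edgeR adjusted p = 0.722), and controls fell by 4.99 on the log2 scale. The interaction was 4.72 (SE 0.67, edgeR adjusted p = 0.00232). With so few mutant counts the fitted fold changes depend on the prior count.

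**Figure D3:**
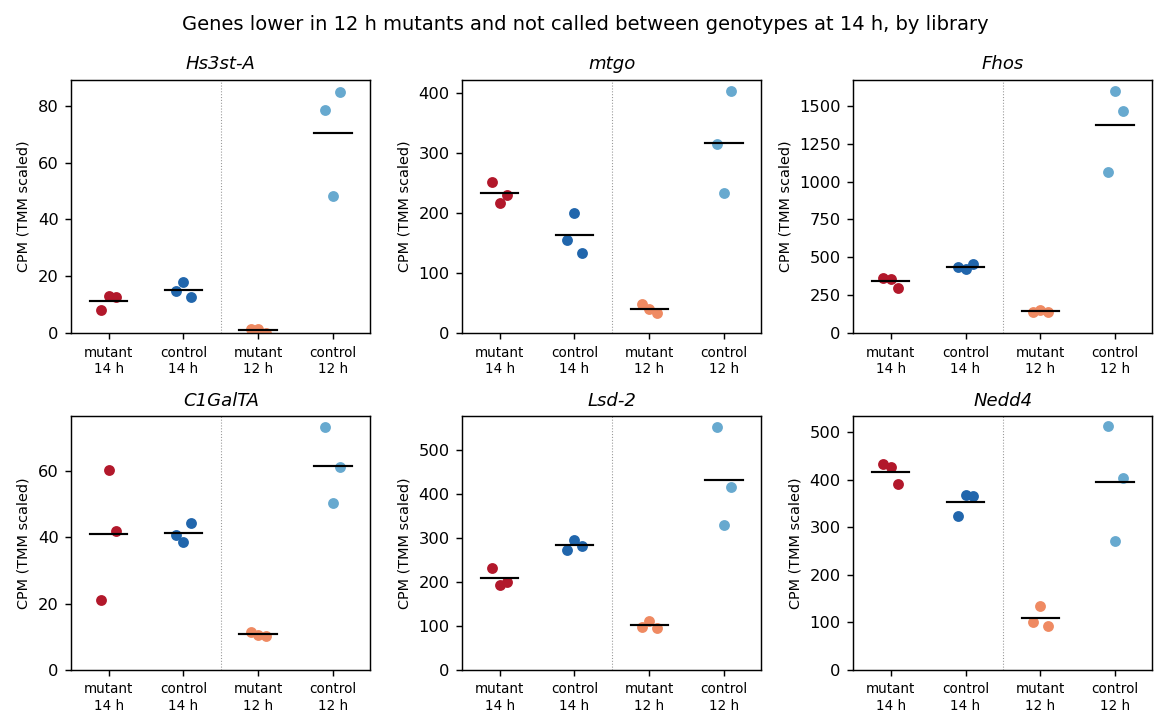
TMM-scaled CPM of 6 genes in each library on linear axes from 0, with points in replicate order 1 to 3 within a group and black bars for group means. The 12 h mutants are the lowest group for each gene and lie below the 12 h controls. The genotypes are closer at 14 h and overlap for Hs3st-A and C1GalTA. Without overlap, the 14 h mutants lie above the 14 h controls for mtgo and Nedd4 and below them for Fhos and Lsd-2.

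Negative interactions included genes that rose in controls by 14 h and did not rise in mutants. Skp2 (FBgn0037236, 3R, 4334879 to 4337674, minus strand) encodes the F-box subunit of a ubiquitin ligase that acts on cell-cycle proteins. At 14 h Skp2 stood at 52.5, 47 and 54.6 CPM in mutants, against 620.4, 609 and 641 CPM in controls. At 12 h Skp2 had 83.3, 104 and 80.2 CPM in mutants, against 170.5, 99.8 and 109 CPM in controls. The 14 h controls stood above all other libraries by more than the spread of any group. Skp2 fell by 0.80 in mutants and rose by 2.30 in controls on the log2 scale, with an interaction of -3.10 (SE 0.29, edgeR adjusted p = 0.000154). About 17% of its exon length overlaps exons on the other strand. Evi5 (FBgn0262740, X, 11430523 to 11454386, minus strand), a TBC-domain protein of the Rab GTPase system, gave the same order. At 14 h Evi5 stood at 22.8, 23.9 and 27.7 CPM in mutants, against 174, 227 and 151 CPM in controls. At 12 h Evi5 had 42, 37.2 and 36.8 CPM in mutants, against 24.7, 40.1 and 34.4 CPM in controls. The 12 h groups overlapped, and the 14 h controls lay above every other library. The interaction was -3.11 (SE 0.29, edgeR adjusted p = 0.000154). Gdap2 had 59.9 to 115 CPM in 14 h mutants, against 488 to 534 in 14 h controls, and 115 to 138 CPM in 12 h mutants, against 101 to 146 in 12 h controls (interaction -2.54, SE 0.33, edgeR adjusted p = 0.00121). Pdcd4, which encodes an inhibitor of translation initiation, had 33 to 37.8 CPM in 14 h mutants, against 234 to 298 in 14 h controls, and 57.9 to 71.5 CPM in 12 h mutants, against 91.9 to 117 in 12 h controls (interaction -2.23, SE 0.23, edgeR adjusted p = 0.000273). The wing-vein gene px gave -2.37 (SE 0.40, edgeR adjusted p = 0.00714).

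Gs2 and drpr touch glutamine metabolism and cell clearance. Gs2 (FBgn0001145, X, 11422832 to 11430197, plus strand) encodes a glutamine synthetase. At 14 h Gs2 stood at 12.4, 14.2 and 8.43 CPM in mutants, against 110.5, 74 and 86.5 CPM in controls. At 12 h Gs2 had 80.4, 122 and 97.9 CPM in mutants, against 36.1, 55.4 and 82.9 CPM in controls. The 14 h mutants lay below all other libraries, and Gs2 fell by 3.10 on the log2 scale in mutants without a called change in controls (0.64, edgeR adjusted p = 0.0979). Its interaction was -3.74 (SE 0.43, edgeR adjusted p = 0.000564). The engulfment receptor gene drpr (draper; FBgn0027594, 3L, 1715595 to 1731107, minus strand) rose in controls. At 14 h drpr stood at 115, 194 and 122 CPM in mutants, against 471, 454 and 417 CPM in controls. At 12 h drpr had 195, 119 and 109 CPM in mutants, against 145, 88.1 and 116 CPM in controls. The genotypes overlapped at 12 h and lay apart at 14 h, with a log2 change with age of 0.03 in mutants, not called, and 1.95 in controls. The drpr interaction of -1.92 (SE 0.38, edgeR adjusted p = 0.0175) ended without the 14 h mutant replicate 1 or 3 or the 14 h control replicate 1 or 2 (edgeR adjusted p of 0.0546 to 0.0582). In the engulfment list 2 of 9 measured genes were called (22.2% against 2.72% of all genes), in opposite directions. The second was mbc, an activator of Rac, with 21.4 to 28.4 CPM in 14 h mutants, against 39.8 to 45.7 in 14 h controls, and 58.1 to 92.6 CPM in 12 h mutants, against 312 to 433 in 12 h controls (interaction 1.45, SE 0.28, edgeR adjusted p = 0.0154). That call ended without the 14 h control replicate 1 or 3 or the 12 h control replicate 2 or 3 (0.0504 to 0.0599), and without both mutant libraries with high gut markers (0.0505).

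Other negative genes were high in 12 h mutants. Sarm (FBgn0262579, 3L, 8063874 to 8108897, plus strand), a TIR-domain protein known for axon degeneration, stood apart in that group. At 14 h Sarm stood at 157, 136 and 111 CPM in mutants, against 99.8, 91.1 and 77.8 CPM in controls. At 12 h Sarm had 825, 677 and 639.8 CPM in mutants, against 56.6, 80.3 and 115 CPM in controls. The 12 h mutants lay far above the other 9 libraries, and mutants also lay above controls at 14 h in 3 of 3 libraries, a difference of 0.59 that did not pass (edgeR adjusted p = 0.123). The interaction was -2.50 (SE 0.34, edgeR adjusted p = 0.00182). The gene kel (kelch; FBgn0001301, 2L, 18129884 to 18138083, minus strand), a substrate adaptor of a cullin ubiquitin ligase, looked much the same. At 14 h kel stood at 32, 33.6 and 39.7 CPM in mutants, against 29.3, 26.9 and 24.4 CPM in controls. At 12 h kel had 324, 284 and 234 CPM in mutants, against 34.6, 44.7 and 46.9 CPM in controls. It fell by 3.00 in mutants and by 0.64 in controls on the log2 scale, and its interaction was -2.35 (SE 0.25, edgeR adjusted p = 0.00036). Sfxn1-3, a sideroflexin of the mitochondrial membrane, had 15.1 to 18.7 CPM in 14 h mutants, against 16.1 to 17.7 in 14 h controls, and 48.9 to 64.1 CPM in 12 h mutants, against 9.17 to 10.8 in 12 h controls (interaction -2.41, SE 0.23, edgeR adjusted p = 0.000193). The protein kinase gene cdi differed in form, since the 12 h controls were the low group: it had 93 to 139 CPM in 14 h mutants, against 119 to 146 in 14 h controls, and 82.6 to 130.4 CPM in 12 h mutants, against 15.1 to 36.5 in 12 h controls (interaction -2.40, SE 0.40, edgeR adjusted p = 0.00714).

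Another 3 of the large negative interactions did not hold in every fit. Sk1, a sphingosine kinase gene, had 0.510, 1.10 and 1.03 CPM in 14 h mutants, against 9.61, 16.7 and 10.2 CPM in 14 h controls. Its gene (X, 11442539 to 11446012, plus strand) lies within the span of Evi5 on the other strand, with 0% of its exon length shared. At 12 h Sk1 had 8.65, 0.716 and 0 CPM in mutants, against 0.768, 0.144 and 0 CPM in controls. The 12 h mutant level came mainly from replicate 1, the library with high gut markers, and without it the interaction of -6.93 (SE 1.57, edgeR adjusted p = 0.0346) became -3.93 (adjusted p = 0.268). The Sk1 call also ended without any 14 h library, or without the 12 h control replicate 2 or 3 (adjusted p of 0.0728 to 0.106). It ended with limma voom (-5.36, 0.196), without both mutant libraries with high gut markers (-4.11, 0.371), and without these and the 12 h control replicate 1 (0.0761). RYa-R, the receptor of RYamide peptides, had 12 to 16.4 CPM in 14 h mutants, against 23.2 to 32.6 in 14 h controls, and 11.4 to 22.9 CPM in 12 h mutants, against 2.77 to 8.32 in 12 h controls (interaction -2.67, SE 0.55, edgeR adjusted p = 0.0199). That call ended without the 14 h mutant replicate 2 or 3 or the 14 h control replicate 1 or 2 (0.0596 to 0.0697). Ndae1, an anion exchanger gene, had 920.1 to 1455 CPM in 14 h mutants, against 2007 to 2852 in 14 h controls, and 807 to 2167 CPM in 12 h mutants, against 290.1 to 788 in 12 h controls (interaction -2.49, SE 0.55, edgeR adjusted p = 0.0311). That call ended for 10 of 12 libraries left out, all but the 12 h mutant replicate 3 and the 12 h control replicate 1 (0.0516 to 0.0965). Without both mutant libraries with high gut markers the RYa-R value was -2.83 (0.068) and the Ndae1 value -2.44 (0.145).

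**Figure D4:**
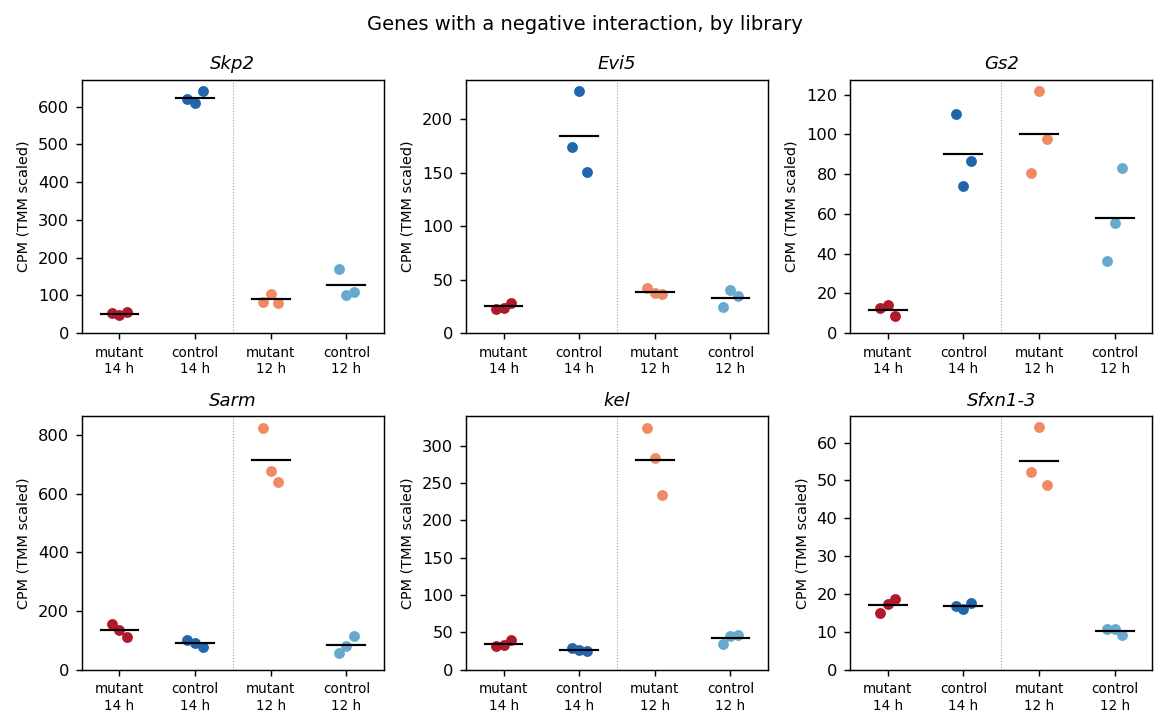
TMM-scaled CPM of 6 genes with a negative interaction in each library on linear axes from 0, with points in replicate order 1 to 3 within a group and black bars for group means. The 14 h controls are the high group for Skp2 and Evi5, the 14 h mutants are the low group for Gs2, and the 12 h mutants are the high group for Sarm, kel and Sfxn1-3.

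In 16 genes the genotype effect passed at both ages with opposite signs, 10 higher in mutants at 14 h and lower at 12 h, and 6 the other way. The sprouty gene sty, an inhibitor of receptor tyrosine kinase signalling, was lower in mutants at 14 h (-1.62) and higher at 12 h (1.72). At 14 h sty stood at 4.79, 5.06 and 3.56 CPM in mutants, against 15.1, 14.6 and 11.4 CPM in controls. At 12 h sty had 17.8, 10.5 and 3.55 CPM in mutants, against 2.82, 3.03 and 3.81 CPM in controls. The groups lay apart at 14 h, while at 12 h the mutant replicate 3 stood within the control range. The sty interaction was -3.34 (SE 0.61, edgeR adjusted p = 0.0107). Gapvd1, a Rab5 activator of endocytosis, gave effects of -1.20 at 14 h and 1.04 at 12 h (interaction -2.24, SE 0.30, edgeR adjusted p = 0.00155). The unconventional myosin gene Mhcl gave -0.99 and 1.13 (interaction -2.12, SE 0.31, edgeR adjusted p = 0.00283).

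The other direction held Plc21C, a phospholipase C gene. At 14 h Plc21C stood at 26.7, 36.4 and 35.8 CPM in mutants, against 12.6, 11.8 and 17.2 CPM in controls. At 12 h Plc21C had 69.9, 85.5 and 45.2 CPM in mutants, against 154, 257 and 166 CPM in controls. Mutants lay above controls at 14 h and below them at 12 h, with no overlap at either age, and with age mutants fell by 1.02 and controls by 3.79 on the log2 scale. The interaction was 2.77 (SE 0.38, edgeR adjusted p = 0.00204). The gene anchor gave 1.26 at 14 h and -1.36 at 12 h (interaction 2.62, SE 0.31, edgeR adjusted p = 0.000642). The gene edl, whose product binds the ETS repressor Aop and blocks it in Drosophila, was higher in mutants at 14 h and lower at 12 h (interaction 2.12, SE 0.28, edgeR adjusted p = 0.0014). The gene aop itself was higher in mutants at 14 h (1.40) and not called at 12 h (-0.77, edgeR adjusted p = 0.0765), with 172 to 262 CPM in 14 h mutants, against 71.7 to 91.4 in 14 h controls, and 183 to 273 CPM in 12 h mutants, against 217 to 462 in 12 h controls. The aop interaction of 2.18 (SE 0.39, edgeR adjusted p = 0.0106) did not pass without both mutant libraries that have high gut markers (2.12, adjusted p = 0.068).

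Ecdysone regulators had uneven interactions. Of 21 measured members 1 was called positive and 2 negative (14.3% against 2.72% of all genes tested), and the median of -0.04 lay near that of all genes. Besides Hr38, the called members were the nuclear receptor genes Eip75B and Eip78C. Eip75B (FBgn0000568, 3L, 17950953 to 18064696, minus strand) stood at 14 h at 178, 172 and 164 CPM in mutants, against 182, 191 and 146 CPM in controls. At 12 h Eip75B had 1687, 1666 and 1273 CPM in mutants, against 132, 318 and 539 CPM in controls. Mutants and controls overlapped at 14 h, and at 12 h every mutant library exceeded every control. The interaction of -2.24 (SE 0.52, edgeR adjusted p = 0.0384) ended for each library left out but the 12 h control replicates 1 and 3 (edgeR adjusted p of 0.0602 to 0.123), with values of -2.82 to -1.84 over the 12 fits, and without both mutant libraries with high gut markers (0.188). Eip78C fell in both genotypes and further in mutants, with 48 to 61.2 CPM in 14 h mutants, against 96.1 to 117 in 14 h controls, and 396 to 439 CPM in 12 h mutants, against 327 to 436 in 12 h controls. Its interaction of -1.16 (SE 0.23, edgeR adjusted p = 0.0176) ended without the 14 h mutant replicate 2 or 3, the 14 h control replicate 2 or 3, the 12 h mutant replicate 1 or 2, or the 12 h control replicate 2 (0.0511 to 0.0702), without both mutant libraries with high gut markers (0.154), and without these and the 12 h control replicate 1 (0.0881).

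The receptor subunits did not pass: EcR gave -0.72 (SE 0.37, edgeR adjusted p = 0.442) and usp 0.33 (SE 0.21, edgeR adjusted p = 0.589). Of the early transcription factors, br was higher in mutants at both ages, by 1.31 at 14 h and 1.74 at 12 h, with an interaction of -0.43 (SE 0.49, edgeR adjusted p = 0.809). At 14 h Eip74EF stood at 286, 281 and 298 CPM in mutants, against 65.3, 41.7 and 35.2 CPM in controls. At 12 h Eip74EF had 3247, 2724 and 2539.8 CPM in mutants, against 463, 1592 and 1869 CPM in controls. The ETS factor gene Eip74EF was far apart between genotypes at 14 h, and at 12 h every mutant exceeded every control, with the control replicate 1 the lowest. Its genotype effect was 2.60 at 14 h (edgeR adjusted p = 0.00105) and 1.12 at 12 h (0.0758), and the difference between these, 1.49 (SE 0.56, edgeR adjusted p = 0.238), did not pass. It passed without the 12 h control replicate 1 (1.91, adjusted p = 0.00413), and without it and both mutant libraries with high gut markers (2.04, 0.0133). The ecdysone importer gene Oatp74D was likewise called at 14 h (1.36) and not at 12 h (0.32), and its interaction of 1.04 (SE 0.30, edgeR adjusted p = 0.104) did not pass, although it did in the same 2 fits (1.24, 0.016, and 1.34, 0.0258). The prepupal competence factor ftz-f1 gave -1.55 (SE 0.64, edgeR adjusted p = 0.301), which passed without the 12 h mutant replicate 3 (-1.98, 0.0492), and 29.4% of its exon length is shared with another gene on its strand. MsrA, called at both ages, gave -0.77 (SE 0.30, edgeR adjusted p = 0.266). The other 11 members that did not pass, among them Hr4, Hr39, Hr78, E23, crol and ImpL2, had values of -2.46 for ImpE2 to 1.34 for ImpE1.

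**Figure D5:**
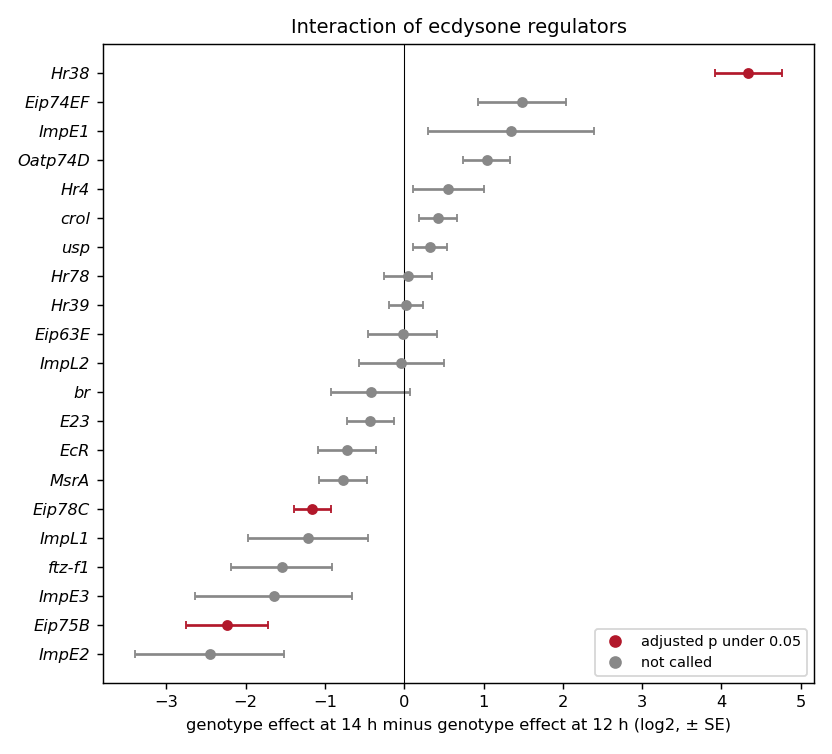
Interaction (genotype effect at 14 h minus genotype effect at 12 h, log2, horizontal axis) of 21 measured ecdysone regulators, each point a fitted value with its SE, and red points those with an adjusted p under 0.05. Of 9 values above 0 only that of Hr38, 4.34, was called, and of 12 below 0 those of Eip75B and Eip78C.

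In other lists the share called is set against 2.72% of all genes. In the glycosylation list 3 of 20 (15%) were called, all positive, namely Hs3st-A, Mgat3 and C1GalTA above, with a list median of -0.12. In the lysosome list 2 of 20 (10%) were called, both positive, LManII and the proton pump subunit gene Vha100-2, with 189 to 246 CPM in 14 h mutants, against 38.3 to 41.4 in 14 h controls, and 128 to 224 CPM in 12 h mutants, against 87.5 to 138 in 12 h controls (interaction 1.99, SE 0.32, edgeR adjusted p = 0.00593), and the median was -0.15. Without both mutant libraries with high gut markers the Vha100-2 value was 1.85 (adjusted p = 0.0561). The heat shock list had 1 of 13 (7.69%) called, the small heat shock gene Hsp26 at 1.43 (SE 0.34, edgeR adjusted p = 0.0467), and a median of 0.57. That call ended for 10 of 12 libraries left out, all but the 14 h mutant replicate 3 and the 12 h control replicate 1 (0.0576 to 0.149), and with relative log expression size factors (0.057) or limma voom (0.056). It also ended without both mutant libraries with high gut markers (0.251), and without these and the 12 h control replicate 1 (0.0565). In the insulin and TOR list 1 of 16 (6.25%) was called. It was sty, the inhibitor of receptor tyrosine kinase signalling above, and no other listed gene passed. Of 35 mitochondrial ribosomal protein genes 1 (2.86%) was called, mRpS17. The mRpS17 call, 3.18 (SE 0.59, edgeR adjusted p = 0.0119), rests on low levels, with 2.65 to 8.79 CPM in 14 h mutants, against 0.777 to 0.892 in 14 h controls, and 2.08 to 2.72 CPM in 12 h mutants, against 2.31 to 3.29 in 12 h controls, and ended with limma voom (0.0785) and without both mutant libraries with high gut markers (0.0845).

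While 2.72% of all genes were called, no member passed the edgeR test in 14 pathway lists with 347 measured genes: autophagy (23), cell death (13), proteasome (31), glycolysis (12), secretory pathway (29), oxidative phosphorylation (63), DNA replication (16), endoplasmic reticulum folding (12), gland identity (11), ribosomal proteins of the cytoplasm (81), septate junction (16), immune peptides (12), cytoskeleton (12) and ribosome biogenesis (16). Of these 347 genes 22 had an unadjusted p under 0.05, 5 passed with DESeq2 and 1 with limma voom. Over all 7584 genes tested these counts were 1027, 338 and 208. Their median interactions ran from -0.14 for septate junction genes to 0.50 for immune peptides, against 0.05 over all genes. Ribosomal protein genes had a median of -0.03 and oxidative phosphorylation genes of -0.02. Ribosome biogenesis genes had a median of 0.43, with 14 of 16 values above 0 and 0 at an unadjusted p under 0.05. Cell death genes had a median of 0.13 and autophagy genes of -0.00255. The 8 marker lists of other tissues and of cuticle proteins held 69 measured genes with 0 calls by edgeR. Of these 69 genes 8 had an unadjusted p under 0.05, 1 passed with DESeq2 and 0 with limma voom, against 1027, 338 and 208 of all 7584. Median interactions of the marker lists ran from -0.705 for cuticle proteins (19 of 28 below 0) to 0.608 for muscle (7 of 8 above 0). Cuticle protein genes summed to 574.6 to 875.9 CPM in 14 h mutants, against 301 to 391 CPM in 14 h controls. Their sums were 749 to 2250.0 CPM in 12 h mutants, against 429 to 1218 CPM in 12 h controls.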

How the data were processed

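Total RNA of salivary glands was counted per gene in 12 libraries. The authors deposited 1 table of raw counts per FlyBase gene, not normalized. Per the submitters' processing notes, the build was BDGP6 and tools included STAR 2.7.6a, DESeq2 1.30.1, featureCounts 1.6.3 and cutadapt 1.16. Their roles, the annotation release and the strand setting are not given in the sources used here. Positions come from an Ensembl annotation of BDGP6, whose release may differ from the authors'. Of 17807 genes, 17710 matched a symbol, and 3929 were at 0 in all libraries. The filterByExpr rule over the 4 groups left 7584 genes, which were scaled by TMM (trimmed means of log ratios) and fitted with edgeR 4.0.16 (R 4.3.3) as 4 group means with 8 residual degrees of freedom. The interaction contrast and the 4 component contrasts were tested by the quasi-likelihood F test, with Benjamini-Hochberg adjustment over all genes tested. SE is the absolute log2 value over the square root of F. The replicate spread is estimated over all groups, although replicates correlated at 0.984 to 0.988 in 14 h controls and 0.946 to 0.975 in 12 h controls (log2 CPM).

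Genes named were the 12 largest positive and 12 largest negative interactions that passed the test, reached 10 CPM as the mean of some group, were counted in every group and had a symbol other than a provisional one. To these came the 6 largest sign changes, every ecdysone regulator, up to 4 called members of each other list, and Eip93F. The genes Fhos, Nedd4, Lsd-2, kel, Pdcd4, SoxN, D, Actn and aop were added after their values were seen. Members and lists were chosen with earlier results of these data known. Alternatives were DESeq2 1.42.0, limma 3.58.1 voom, relative log expression (RLE) size factors, library size alone, no filter, at least 5 CPM in at least 3 libraries, an adjusted p under 0.01, at least 2-fold, a replicate block, and leaving out each library. The steps were tested on simulated counts drawn from a model of the kind that edgeR fits. No simulated library was made to stand apart, so that test does not cover the libraries that do so here.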

Additional observations from a re-analysis of the deposited data

Results flagged for a closer look

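The genotype effect differed between 14 h and 12 h by the interaction test itself (edgeR, adjusted p under 0.05) in 206 genes, and each named gene that passed is listed with its interaction, the log2 fold change of mutant over control at 14 h minus that at 12 h. The largest positive values among them were 6.05 for Eh, 5.65 for Hs3st-A, 5.18 for ec, 5.17 for RluA-1, 4.72 for Mgat3, 4.38 for Sobp, 4.34 for Hr38 and 3.87 for Eig71Ef. Further positive interactions were 3.67 for Eig71Ed, 3.66 for Eig71Eg, 3.49 for mtgo, 3.47 for Eig71Ec, 3.18 for mRpS17, 2.90 for Fhos, 2.77 for Plc21C and 2.63 for D. Smaller positive ones were 2.62 for anchor, 2.56 for LManII, 2.52 for C1GalTA, 2.47 for Actn, 2.18 for aop, 2.12 for edl, 2.11 for Nedd4 and 1.99 for Vha100-2. The smallest positive ones were 1.87 for SoxN, 1.75 for Eig71Ee, 1.66 for Lsd-2, 1.45 for mbc and 1.43 for Hsp26. Negative interactions were -6.93 for Sk1, -3.74 for Gs2, -3.34 for sty, -3.11 for Evi5, -3.10 for Skp2, -2.67 for RYa-R, -2.54 for Gdap2 and -2.50 for Sarm. Smaller negative ones were -2.49 for Ndae1, -2.41 for Sfxn1-3, -2.40 for cdi, -2.37 for px, -2.35 for kel, -2.24 for Gapvd1, -2.24 for Eip75B and -2.23 for Pdcd4. Last were -2.12 for Mhcl, -1.92 for drpr and -1.16 for Eip78C. Groups of 3 libraries are too small for a test of a single library that stands apart, so none was made.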

How the results depend on the processing

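Over 9 alternatives and 12 fits without 1 library, the count of interaction genes moved by more than 1.5 times from 206 (133 positive, 73 negative) in several. DESeq2 gave 338 (199 positive, 139 negative), and an adjusted p under 0.01 gave 71 (50 and 21). That threshold gave 636 and 520 genes for the genotype effects at 14 h and 12 h, in place of 1153 and 1199. Leaving out 1 library gave 105 to 430 genes (75 to 257 positive, 30 to 173 negative), and 701 to 1586 genes for genotype at 14 h and 798 to 1186 at 12 h. Of 2 fits chosen with knowledge of the libraries' values, the one without the libraries with high gut markers (14 h mutant replicate 2, 12 h mutant replicate 1) gave 84 (57 positive, 27 negative) and 677 at 12 h. The other, which also left out the 12 h control replicate 1, gave 290 (119 negative) and 792 at 12 h. The positive share was 64.6% and ran from 52.8% (without the 12 h mutant replicate 3) to 75.2% (without the 14 h mutant replicate 3), and 62.6% to 66% under other scalings. The median of all genes moved by less than 0.1 on the log2 scale under each scaling. No named interaction that passed changed sign. Among 1103 values of 48 such genes under the alternatives, the call ended in 144 and held in 959, and 31 of the 48 passed in all 21 fits that keep the threshold of 0.05 and set no minimum fold. Replicate numbers did not pair the libraries (18 same-number pairs correlated at -0.257 to 0.238, and 5 of 12 libraries correlated best with their own number). A fit with a replicate block called 158 genes, 154 of them among the 206, and under it Eig71Ef, Eig71Eg, Sk1, Ndae1, Eip75B and Hsp26 did not pass (adjusted p of 0.0518 to 0.0676). With 3 libraries a group and a median SE of 0.44, small interactions may pass unseen. The causes of these shifts were not tested.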

Other observations

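Several of the largest interactions belong to genes that have only a provisional symbol and therefore fell outside the rule for named genes. They were chosen after their values were seen, and each passed in all of the same 21 fits. CG34398 had the smallest interaction p of the 7584 genes. Its levels (mean ± SD, n = 3) were 139 ± 23 CPM in 14 h mutants, against 22.4 ± 2.57 CPM in 14 h controls, and 23.4 ± 3.58 CPM in 12 h mutants, against 54.3 ± 5.49 CPM in 12 h controls, with an interaction of 3.85 (SE 0.26, edgeR adjusted p = 2.39e-05). It was higher in mutants at 14 h and lower at 12 h. CG32762 had 4057 ± 1066 CPM in 14 h mutants, against 17.7 ± 6.47 CPM in 14 h controls, and 198 ± 95 CPM in 12 h mutants, against 62.3 ± 15.3 CPM in 12 h controls, with an interaction of 6.17 (SE 0.54, edgeR adjusted p = 0.000133). CG4151 had 18104 ± 3974 CPM in 14 h mutants, against 176 ± 41.7 CPM in 14 h controls, and 10055 ± 3589 CPM in 12 h mutants, against 5239.5 ± 3357 CPM in 12 h controls, and CG33998 had 9509 ± 3199.8 CPM in 14 h mutants, against 319.9 ± 142 CPM in 14 h controls, and 2488 ± 218 CPM in 12 h mutants, against 1219 ± 456 CPM in 12 h controls. Their interactions were 5.74 (SE 0.69, edgeR adjusted p = 0.00074) and 3.86 (SE 0.53, edgeR adjusted p = 0.00184). In CG4151 the mutant change with age of 0.85 did not pass (edgeR adjusted p = 0.15), and controls fell by 4.89 on the log2 scale. No role is given here for these genes.

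Among the named genes that passed, 2 pairs outside the 71E cluster lie end to end on opposite strands and have interactions of the same sign. LManII (plus strand, 2.56) and RluA-1 (minus strand, 5.17) are 867 bases apart on 2L, and Gs2 (plus strand, -3.74) and Evi5 (minus strand, -3.11) are 325 bases apart on X. Sk1 (plus strand, -6.93) lies within the span of Evi5, with 0% of its exon length shared. These positions were seen after the values were known, no test of them was made, and the strand setting of the counting is not given.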
